A study of Mus musculus with 15 samples.

Results

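The postsynaptic density scaffold genes described here are 10 mouse genes from 3 families. They are Shank1, Shank2 and Shank3, Dlgap1, Dlgap2, Dlgap3 and Dlgap4, and Dlg2, Dlg3 and Dlg4. The 10 were chosen with earlier results of these data known and were matched by Entrez gene identifier. All 10 were found among the 27179 identifiers of the count table and were among the 16816 genes tested. Dlg1, a further Dlg gene, is not among the 10 and is counted with the other scaffolds below. The expression data are bulk RNA sequencing of dissected medial prefrontal cortex (mPFC), a cortical region that takes part in the regulation of fear extinction, in which a conditioned fear response weakens with unreinforced exposure to the cue. All mice were of the C57BL/6J strain, and they differed in ABX treatment, ABX being the usual abbreviation for an antibiotic mixture, and in the stage of sampling relative to fear extinction. The 4 groups were pre-extinction ABX (n = 4), pre-extinction non-ABX (n = 3, numbered 1, 3 and 4 in the labels), post-extinction ABX (n = 4) and post-extinction non-ABX (n = 4). The composition, dose and duration of ABX, the age and sex of the mice, and the number of animals behind each library were not known here, so each p-value rests on the spread between libraries only.

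The postsynaptic density is the protein mesh beneath the membrane of excitatory synapses. Membrane-associated guanylate kinases of the Dlg family bind the tails of NMDA receptors and of AMPA receptor auxiliary subunits near the membrane, Dlgap proteins bind the guanylate kinase domain of the Dlg proteins, and Shank proteins bind the Dlgap proteins and reach, through Homer and cortactin, toward metabotropic glutamate receptors and actin. These scaffolds hold receptors and signalling enzymes together in cortical excitatory neurons, and mutations of several of their genes are known from neurodevelopmental disorders in humans.

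Each library held 44254906 to 57929503 counts, and the members had between 3426 counts (Dlgap2) and 52669 counts (Dlg4) in a library, so the spread between libraries and not counting error set the precision. Levels are given in CPM on libraries scaled by TMM factors, in the order of the replicate numbers, and differences as log2 fold changes. A gene was called at an edgeR adjusted p under 0.05 over all genes tested. Slc17a7, which encodes the vesicular glutamate transporter of cortical excitatory neurons, ran from 1177 to 1809 CPM, while the striatal markers Drd2 and Adora2a reached at most 0.979 and 2.15 CPM. Sorted cells are named in the extraction text, but the labels give dissected mPFC as the source of every library. In bulk tissue, fewer cells of a type and less RNA per cell cannot be told apart. The library kit does not keep strand, so reads of genes overlapping the members could not be separated, and those overlapping genes that are in the table were low, 1700008O03Rik at 2.81 CPM over Shank1 and 4930405A21Rik at 0.238 CPM over Dlgap4.

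Per kilobase of transcript, the scale on which genes can be set against each other, Dlg4 was the most abundant scaffold with a mean of 275 CPM per kb over the 15 libraries, and Shank3 the least abundant with 23.5 CPM per kb. Dlg4 encodes PSD-95, the main membrane-associated guanylate kinase of mature excitatory synapses. Dlgap1 followed with 178 and Dlg2 with 116 CPM per kb. Next came Dlgap4 with 73.5, Shank1 with 67.7, Dlg3 with 56.2 and Dlgap3 with 46.4 CPM per kb, and then Dlgap2 with 28.2 and Shank2 with 27.6 CPM per kb. Of the neighbours in this order, only Dlgap1 and Dlg2 had ranges over the 15 libraries that did not meet, 157 to 186 CPM per kb in Dlgap1 and 102 to 141 CPM per kb in Dlg2. Lengths are medians over annotated transcripts, so the order also depends on which isoforms the tissue uses.

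**Figure D1:**
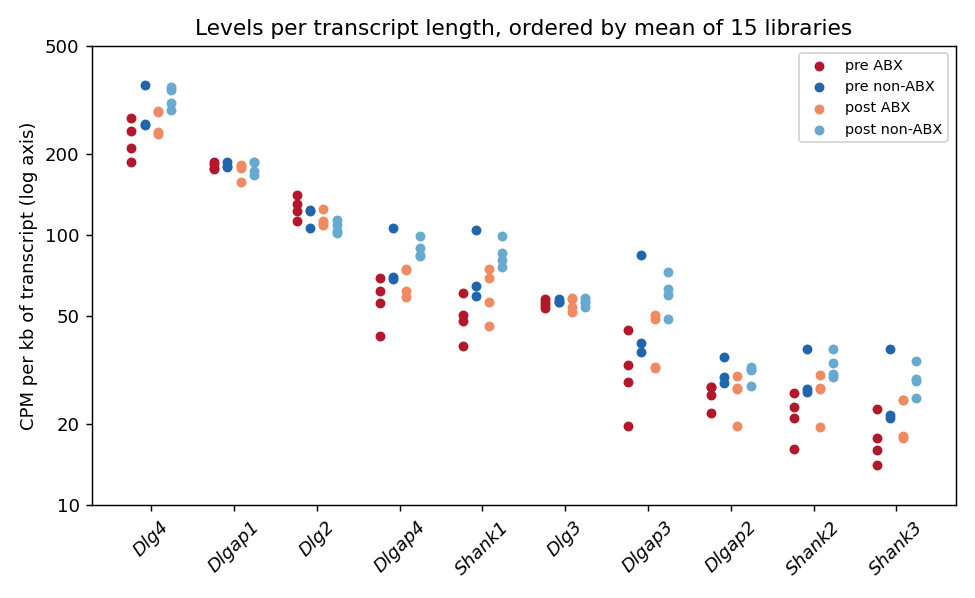
Levels of the 10 scaffold genes in CPM per kb of transcript (log axis), 1 point per library, coloured by group and ordered by the mean over the 15 libraries. Dlg4 stands highest with a mean of 275 CPM per kb, Dlg3 and Dlgap1 show narrow bands, and Dlgap3 spreads from 19.6 to 84.6 CPM per kb.

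Setting ABX against non-ABX libraries addresses how mPFC expression differed with the treatment, at each stage and averaged over both. The 7 scaffold genes Shank1, Shank2, Shank3, Dlgap2, Dlgap3, Dlgap4 and Dlg4 had lower values with ABX at both stages, with log2 fold changes averaged over the stages between -0.68 in Dlgap3 and -0.27 in Dlgap2. Dlgap1, Dlg2 and Dlg3 had averaged log2 fold changes of -0.02, 0.10 and -0.03. None of the 10 passed the edgeR test at either stage or in the average. This split of the genes was made after their values were seen and carries no test of its own. The plot of levels by library shows each gene.

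**Figure D2:**
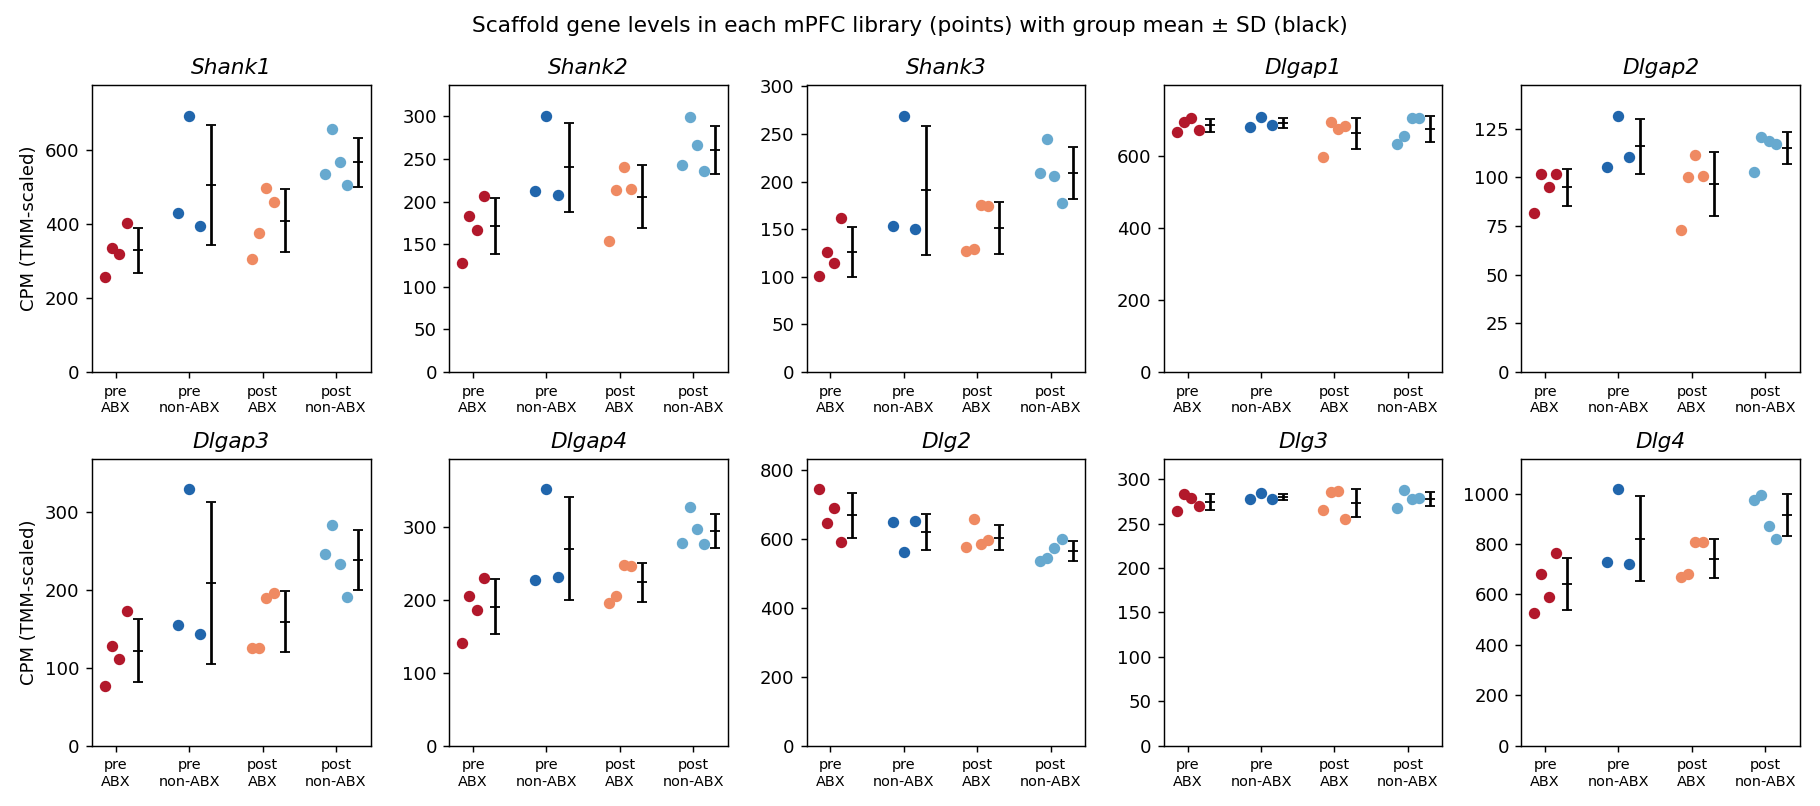
CPM of each scaffold gene in every library (points), with the group mean ± SD in black, for pre-extinction ABX and non-ABX and post-extinction ABX and non-ABX libraries, each axis starting at 0. Shank1 averaged 410 CPM with ABX and 568 CPM without after extinction, while Dlg3 stayed between 255 and 287 CPM in all 15 libraries.

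Shank proteins are the deepest layer of the scaffold. Shank1 had 258, 336, 319.5 and 405 CPM in the pre-extinction ABX libraries, against 432, 694 and 396 CPM in the pre-extinction non-ABX libraries. After extinction Shank1 had 307, 376, 498 and 459 CPM with ABX and 535, 659, 569.8 and 508 CPM without. Before extinction 1 non-ABX library, replicate 3, stood far above the rest and the highest ABX library lay above the lowest non-ABX library, whereas after extinction every ABX library was below every non-ABX library. For Shank1 the log2 fold change, ABX over non-ABX, was -0.62 before and -0.47 after extinction, and -0.55 averaged over both stages (SE 0.13, edgeR adjusted p = 0.060). Shank1 (Entrez 243961, chromosome 7, 44308916 to 44360094 of mm10, the build used for all positions here) encodes a Shank protein concentrated at mature spine synapses. Shank2 had 128, 183, 167 and 206 CPM in the pre-extinction ABX libraries, against 213, 301 and 208 CPM in the pre-extinction non-ABX libraries. After extinction Shank2 had 154, 214, 241 and 214 CPM with ABX and 243, 299, 266 and 236 CPM without. The groups did not overlap before extinction, though by a margin under the spread within either group, and overlapped after extinction. For Shank2 the log2 fold change, ABX over non-ABX, was -0.49 before and -0.34 after extinction, and -0.42 averaged over both stages (SE 0.11, edgeR adjusted p = 0.066). Shank2 (Entrez 210274, chromosome 7, 143978077 to 144426043) encodes a Shank protein present early in synapse formation.

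Shank3 had 101, 126, 114 and 162 CPM in the pre-extinction ABX libraries, against 154, 269 and 150.1 CPM in the pre-extinction non-ABX libraries. After extinction Shank3 had 127, 129, 176 and 174 CPM with ABX and 209, 245, 206 and 177 CPM without. As for Shank1, the groups overlapped before extinction and did not overlap after it. For Shank3 the log2 fold change, ABX over non-ABX, was -0.60 before and -0.46 after extinction, and -0.53 averaged over both stages (SE 0.14, edgeR adjusted p = 0.063). Shank3 (Entrez 58234, chromosome 15, 89493013 to 89560261) is the gene whose loss in humans is a cause of Phelan-McDermid syndrome. The make-up of the Shank family per kilobase varied little: Shank1 made up 55.8 ± 0.522% (SD, n = 4) of the 3 genes' CPM per kb in pre-extinction ABX libraries and 57.0 ± 1.14% (SD, n = 3) in pre-extinction non-ABX libraries. After extinction its share was 56.5 ± 1.15% with ABX and 57.9 ± 0.395% without (SD, n = 4 each). The summed level of the family was 88.8 ± 16.7 CPM per kb with ABX (SD, n = 4) and 133 ± 40.6 CPM per kb without (SD, n = 3) before extinction, and 109 ± 20.7 CPM per kb with ABX and 148 ± 17.2 CPM per kb without after it (SD, n = 4 each).

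The Dlgap proteins, also called SAPAPs or GKAPs, join the Dlg layer to the Shank layer. Dlgap3 had 76.1, 128, 111 and 173 CPM in the pre-extinction ABX libraries, against 155, 329 and 143 CPM in the pre-extinction non-ABX libraries. After extinction Dlgap3 had 125, 126, 189.8 and 196 CPM with ABX and 246, 284, 234 and 191 CPM without. Dlgap3 varied most of all members, with a coefficient of variation over the 15 libraries of 38.3%, against a median of 11.6% over 14110 genes, and its groups overlapped at both stages. For Dlgap3 the log2 fold change, ABX over non-ABX, was -0.78 before and -0.58 after extinction, and -0.68 averaged over both stages (SE 0.19, edgeR adjusted p = 0.068). Dlgap3 (Entrez 242667, chromosome 4, 127168305 to 127237022) encodes SAPAP3, whose loss in mice causes compulsive grooming. Dlgap4 had 140.3, 205, 186 and 229.5 CPM in the pre-extinction ABX libraries, against 227, 351 and 231 CPM in the pre-extinction non-ABX libraries. After extinction Dlgap4 had 195, 206, 248 and 246 CPM with ABX and 278, 326, 296 and 276 CPM without. The Dlgap4 groups overlapped before extinction and did not overlap after it. For Dlgap4 the log2 fold change, ABX over non-ABX, was -0.50 before and -0.40 after extinction, and -0.45 averaged over both stages (SE 0.11, edgeR adjusted p = 0.060). Dlgap4 (Entrez 228836, chromosome 2, 156613633 to 156764363) encodes SAPAP4.

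Dlgap2 had 81.6, 102, 95 and 102 CPM in the pre-extinction ABX libraries, against 105, 132 and 111 CPM in the pre-extinction non-ABX libraries. After extinction Dlgap2 had 72.9, 100.3, 112 and 101 CPM with ABX and 103, 121, 119 and 117 CPM without. Every ABX library was below every non-ABX library before extinction, and the groups overlapped after it. For Dlgap2 the log2 fold change, ABX over non-ABX, was -0.29 before and -0.25 after extinction, and -0.27 averaged over both stages (SE 0.08, edgeR adjusted p = 0.073). Dlgap2 (Entrez 244310, chromosome 8, 14095776 to 14853426) encodes SAPAP2. Dlgap1 had 668, 694, 706 and 673 CPM in the pre-extinction ABX libraries, against 680.5, 709 and 685 CPM in the pre-extinction non-ABX libraries. After extinction Dlgap1 had 598, 693, 675 and 684 CPM with ABX and 633, 654, 706 and 705 CPM without. The Dlgap1 levels of the groups overlapped at both stages, and post-extinction ABX replicate 1 was the lowest library. Averaged over the stages the log2 fold change of Dlgap1 was -0.02 (95% interval -0.11 to 0.07, edgeR adjusted p = 0.77). Dlgap1 (Entrez 224997, chromosome 17, 69969073 to 70821413) encodes GKAP, the founding member of the family, and had a coefficient of variation of 4.48% over the 15 libraries.

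The make-up of the Dlgap family varied more than that of the Shank family. Dlgap1 made up 61.4 ± 5.05% (SD, n = 4) of the family's CPM per kb in pre-extinction ABX libraries and 52.9 ± 6.71% (SD, n = 3) in pre-extinction non-ABX libraries. After extinction its share was 56.6 ± 3.18% with ABX and 49.5 ± 3.08% without (SD, n = 4 each). The shares were not tested.

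The Dlg proteins sit closest to the receptors. Dlg4 had 526, 683, 591 and 763 CPM in the pre-extinction ABX libraries, against 728, 1017 and 719 CPM in the pre-extinction non-ABX libraries. After extinction Dlg4 had 668, 681, 809.7 and 807 CPM with ABX and 975, 996, 869.8 and 819 CPM without. The groups overlapped before extinction and did not overlap after it. For Dlg4 the log2 fold change, ABX over non-ABX, was -0.36 before and -0.30 after extinction, and -0.33 averaged over both stages (SE 0.09, edgeR adjusted p = 0.068). Dlg4 (Entrez 13385, chromosome 11, 70017203 to 70045535) encodes PSD-95. Dlg2 had 743, 647, 689.6 and 592 CPM in the pre-extinction ABX libraries, against 649, 561 and 652 CPM in the pre-extinction non-ABX libraries. After extinction Dlg2 had 576, 657, 586 and 597 CPM with ABX and 537, 544, 574 and 600.0 CPM without. Dlg2 (Entrez 23859, chromosome 7, 90476188 to 92449246) encodes PSD-93, and pre-extinction ABX replicate 1, the lowest library for 6 other members, was its highest. The averaged log2 fold change of Dlg2 was 0.10 (95% interval -0.02 to 0.22, edgeR adjusted p = 0.22), and its groups overlapped at both stages.

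Dlg3 had 264, 284, 278 and 270.1 CPM in the pre-extinction ABX libraries, against 277, 284 and 278 CPM in the pre-extinction non-ABX libraries. After extinction Dlg3 had 265, 285, 286 and 255 CPM with ABX and 267, 287, 278 and 278 CPM without. Dlg3 (Entrez 53310, chromosome X, 100767411 to 100818410), which encodes SAP102, prominent at developing synapses, was the steadiest member with a coefficient of variation of 3.45%. Its averaged log2 fold change was -0.03 (95% interval -0.11 to 0.06, edgeR adjusted p = 0.65), with overlapping groups at both stages. The ratio of Dlg4 to Dlg2 in CPM was 0.978 ± 0.252 in pre-extinction ABX libraries (SD, n = 4) and 1.35 ± 0.404 in pre-extinction non-ABX libraries (SD, n = 3). After extinction it was 1.23 ± 0.164 with ABX and 1.63 ± 0.23 without (SD, n = 4 each), and it was not tested.

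Read across the families, the ABX difference did not pass the test at either stage. Before extinction edgeR called 0 of 10 members, and 0.00595% of the genes tested were called. DESeq2 called 0 of 10 (0.0892% of genes) and voom with sample quality weights 0 of 10 (0.00595% of genes). At an unadjusted p under 0.05, 7 of 10 members were lower with ABX, against 11.4% of all genes. Negative log2 fold changes were found in 9 of 10 members and 48.5% of genes, and the median log2 fold change of the members was -0.42, against 0.01 over all genes. The groups did not overlap, with ABX lower, for 2 of 10 members, against 3.14% of genes. 1 library weighed on these values, since without pre-extinction non-ABX replicate 3, the highest of all libraries for 8 of 10 members, the median was -0.23. With each library's trend over all genes with transcript GC content removed, the pre-extinction median was -0.16, and 5 of 10 members were lower at an unadjusted p under 0.05, against 5.39% of genes. Leaving out the 2 libraries with the most extreme GC trends, chosen after seeing the data, gave a median of -0.12.

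After extinction edgeR called 0 of 10 members, with 0.0178% of genes called, as did DESeq2 (1.11% of genes) and voom (1.82% of genes). At an unadjusted p under 0.05, 7 of 10 were lower with ABX, against 6.83% of genes, and 9 of 10 had negative values, against 48.4% of genes. The median log2 fold change was -0.32 against 0.01 over all genes, and 4 of 10 members had ABX libraries wholly below the non-ABX libraries, against 6.36% of genes. The median ran from -0.39 to -0.24 as each of the 8 libraries was left out in turn. It was -0.24 without post-extinction ABX replicate 1, the lowest library of its group for 9 of 10 members. With the GC trend removed the post-extinction median was -0.17, and 6 of 10 members were lower at an unadjusted p under 0.05, against 8.13% of genes.

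Averaged over the stages edgeR called 0 of 10 members, with 0.624% of genes called. The 7 genes named above had edgeR adjusted p between 0.060 and 0.073. At an unadjusted p under 0.05, 7 of 10 members were lower, against 17.8% of genes. Negative values were found in 9 of 10 members, against 47.5% of genes. This call depended on the test. DESeq2 called 7 of 10 members, with 12.9% of genes called, and voom with sample quality weights called 4 of 10, Shank1, Shank2, Shank3 and Dlgap4, with 5.36% of genes called. Without pre-extinction ABX replicate 4 edgeR called 7 members and 18.2% of genes, and without pre-extinction non-ABX replicate 4 it called 6 members and 6.2% of genes. Of the 24 other settings tried for this comparison, 7 called members and 17 called none.

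The same libraries differed in a trend over all genes with the GC content of their transcripts, given here as the slope of log2 CPM, centred on each gene's mean, per 10 points of GC. The slope was -0.44, -0.14, -0.35 and 0.05 in the pre-extinction ABX libraries, against -0.06, 0.34 and -0.15 in the pre-extinction non-ABX libraries. After extinction it was -0.10, -0.13, 0.13 and 0.13 with ABX and 0.22, 0.31, 0.15 and 0.05 without. The most negative slope belongs to pre-extinction ABX replicate 1, the lowest library for 6 of 10 members, and the most positive to pre-extinction non-ABX replicate 3. The plot of levels against the slope shows the members climbing with it, except Dlgap1 and Dlg3, which stay level, and Dlg2, which descends.

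**Figure D3:**
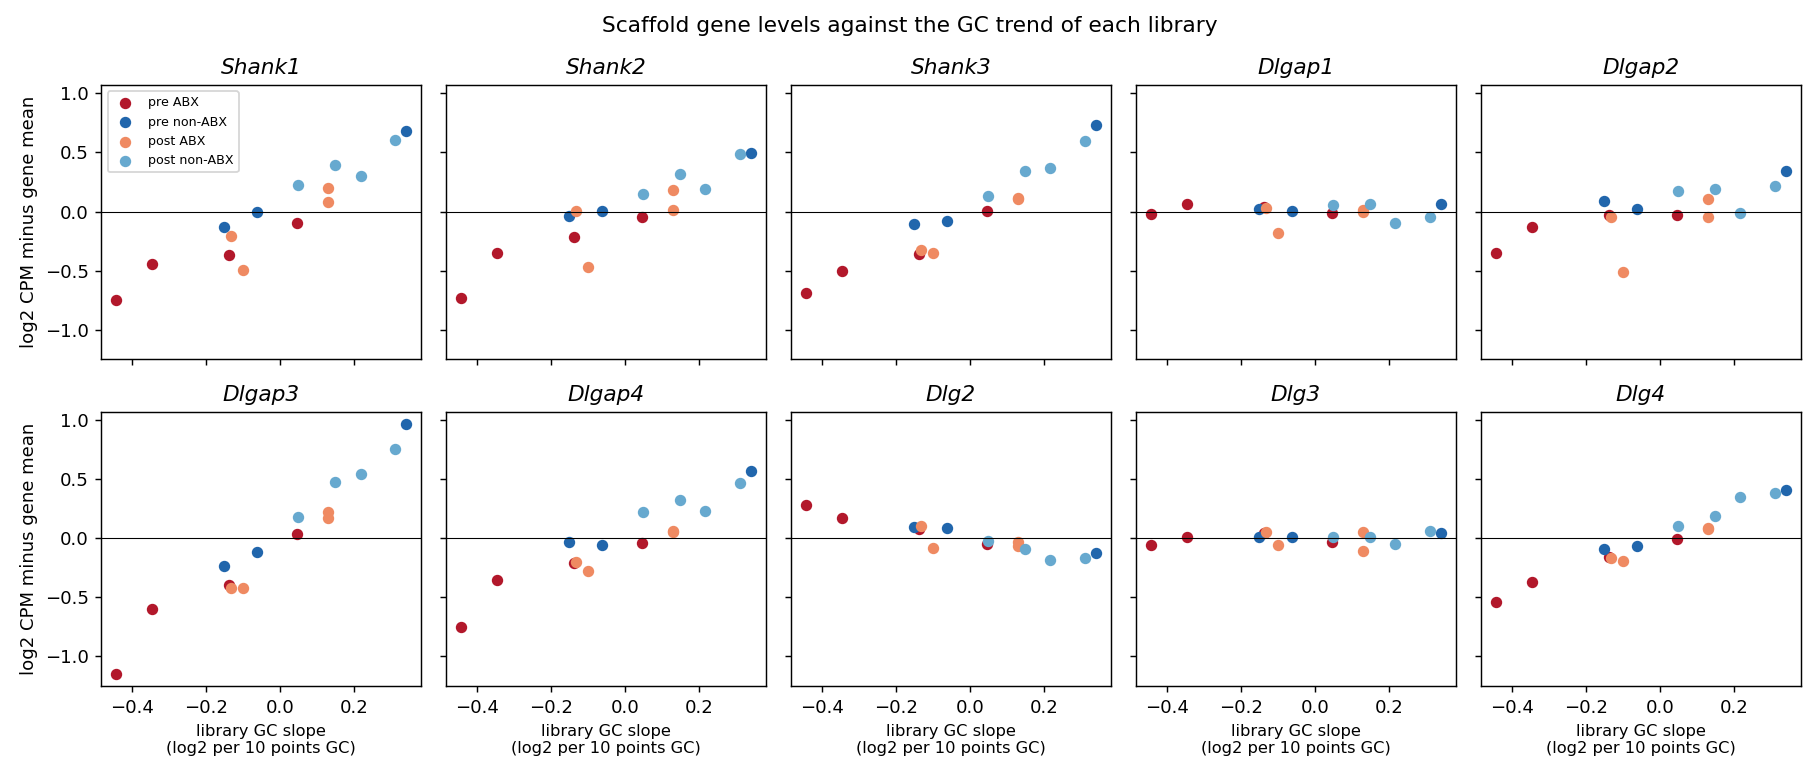
Log2 CPM of each scaffold gene minus its mean over the 15 libraries, against the slope of all genes' levels on transcript GC content in the same library (log2 per 10 points of GC), 1 point per library coloured by group. Dlgap3 climbs most across the range of slopes from -0.44 to 0.34, Dlg3 and Dlgap1 stay near 0 and Dlg2 descends.

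The members also differ in GC content, and the order of their ABX differences largely followed it. Dlgap3, Shank1, Shank3 and Dlgap4, with 64.7%, 63.7%, 62.4% and 59.3% GC, had the most negative averaged log2 fold changes, in that order. Dlg2, with 44.3% GC, had the only positive value. Between them lay Dlgap2 with 56.4% GC, Dlg4 with 56.1%, Shank2 with 55.2%, Dlgap1 with 54.4% and Dlg3 with 51.9%. There the order departed from GC content among Dlgap2, Dlg4 and Shank2, and between Dlgap1 and Dlg3. Shank2 and Dlgap1, close in GC content, had averaged log2 fold changes of -0.42 and -0.02. Over all genes the median averaged log2 fold change was -0.35 at 60% GC or more, -0.19 at 55 to 60%, -0.03 at 50 to 55%, 0.07 at 45 to 50% and 0.12 under 45%. Shank1, Shank2, Shank3, Dlgap2, Dlgap3, Dlgap4 and Dlg4 each lay below the median of their GC range. Dlgap1, Dlg2 and Dlg3 lay near the median of theirs. Those named first had been grouped for their lower values with ABX, so their place below the median is not a separate result.

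**Figure D4:**
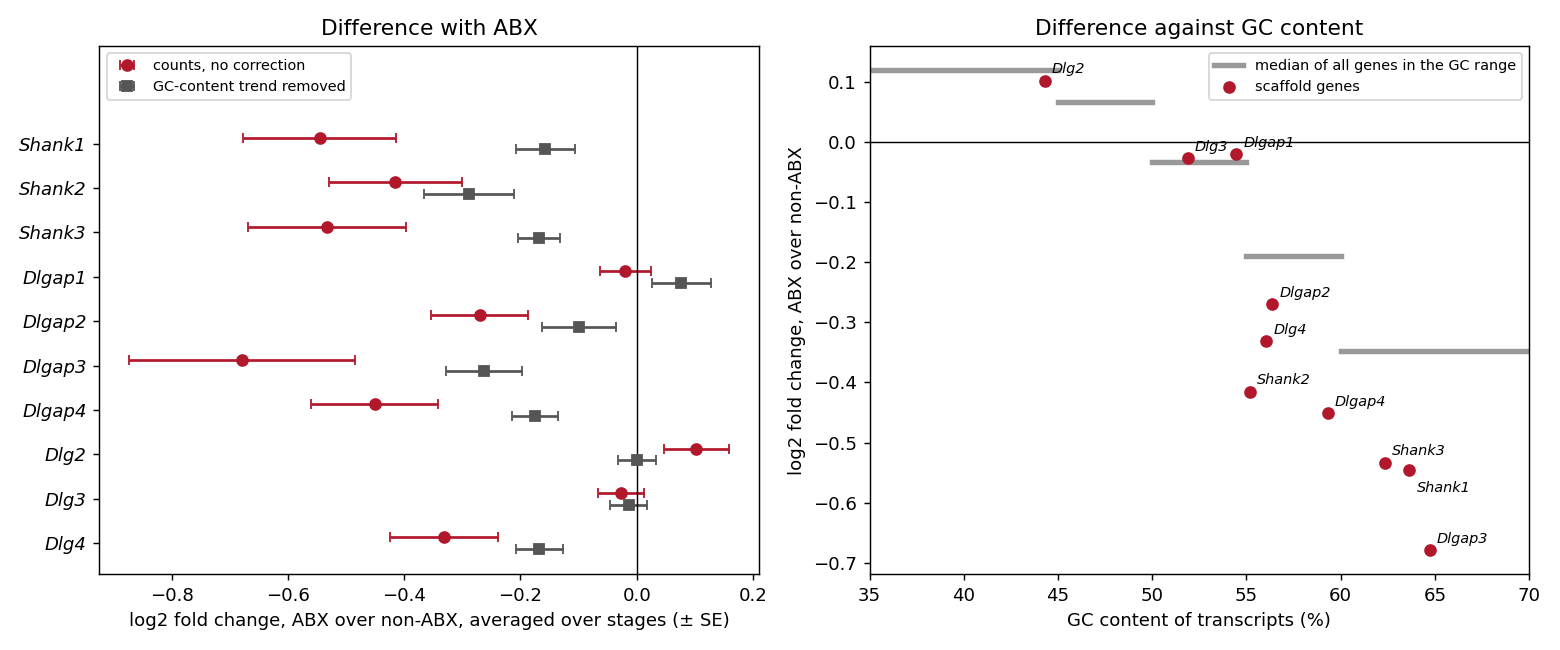
Left, log2 fold change (± SE) of each scaffold gene, ABX over non-ABX averaged over the stages, from the counts and with the GC-content trend removed. Right, the uncorrected values against transcript GC content (%), with grey lines at the median of all genes in each GC range. With the trend removed the values lie between -0.29 and 0.08, and in the right panel the members run from 0.10 in Dlg2 to -0.68 in Dlgap3.

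With the GC trend of each library removed, the median averaged log2 fold change of the members was -0.16, against -0.37 without that step. Values ran from -0.29 in Shank2 to 0.08 in Dlgap1. The edgeR test on this scale called 5 of 10 members lower, with 3.99% of genes called: Shank2 at -0.29 (adjusted p = 0.045), Shank3 at -0.17 (adjusted p = 0.025), Dlgap3 at -0.26 (adjusted p = 0.036), Dlgap4 at -0.18 (adjusted p = 0.028) and Dlg4 at -0.17 (adjusted p = 0.035). Shank1 at -0.16 and Dlgap2 at -0.10 did not pass (edgeR adjusted p = 0.083 and 0.36). The SD of centred log2 CPM over the libraries was 0.20 after the step and 0.56 before it in Dlgap3, and 0.12 after and 0.07 before in Dlgap1. Whether the trend arose in the tissue or in library preparation cannot be told apart in these data. With both libraries of most extreme slope left out, a choice made after seeing the data, edgeR called 0 of 10 members and 0.0236% of genes. The median of the members was then -0.23, and Shank1 had an averaged log2 fold change of -0.35 and Dlgap3 one of -0.35.

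Sequence before a start site is shown for each of 4 members, chosen after their values were seen, to set 2 GC-rich windows beside 2 GC-poor windows. The windows are the 250 bases before a RefSeq transcript start on GRCm38.p6, and windows were found for 7 of 10 members. All 4 windows shown lie inside the gene spans given above, so they precede internal starts. The sequence before the outermost start of these genes is not shown. Capitals mark the GC box GGGCGG, searched on both strands so that CCGCCC also counts, with no overlap with the other motifs searched.
Shank3, chr15:89499358-89499607, plus strand: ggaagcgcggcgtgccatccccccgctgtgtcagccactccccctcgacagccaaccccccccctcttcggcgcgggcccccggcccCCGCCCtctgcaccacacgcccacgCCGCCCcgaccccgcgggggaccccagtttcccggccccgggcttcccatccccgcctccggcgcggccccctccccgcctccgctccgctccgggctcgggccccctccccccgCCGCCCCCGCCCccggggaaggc
Dlgap4, chr2:156720715-156720964, plus strand: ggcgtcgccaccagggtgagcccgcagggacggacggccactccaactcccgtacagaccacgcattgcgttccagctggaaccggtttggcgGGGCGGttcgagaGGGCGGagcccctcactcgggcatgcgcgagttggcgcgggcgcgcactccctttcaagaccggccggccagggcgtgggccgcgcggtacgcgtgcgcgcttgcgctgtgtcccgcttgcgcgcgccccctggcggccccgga
Dlgap3, chr4:127172630-127172879, plus strand: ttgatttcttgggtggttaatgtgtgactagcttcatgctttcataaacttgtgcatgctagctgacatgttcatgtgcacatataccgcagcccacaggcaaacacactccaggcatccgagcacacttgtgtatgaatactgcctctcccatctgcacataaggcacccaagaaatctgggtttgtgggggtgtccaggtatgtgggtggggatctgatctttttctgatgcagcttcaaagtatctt
Dlg2, chr7:91090536-91090785, plus strand: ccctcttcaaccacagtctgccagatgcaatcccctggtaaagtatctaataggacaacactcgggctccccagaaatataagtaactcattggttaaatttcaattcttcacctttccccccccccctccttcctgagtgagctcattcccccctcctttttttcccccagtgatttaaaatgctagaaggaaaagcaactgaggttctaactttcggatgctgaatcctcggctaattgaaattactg
The Shank3 window holds 4 GC boxes at 82.4% GC and the Dlgap4 window 2 at 74.0% GC, while the Dlgap3 window at 46.8% GC and the Dlg2 window at 45.2% GC hold none. Over all 13 member windows the box was present in 4 (30.8%), the others being before a Dlg3 and a Dlg4 start, and it was present in 32.7% of 32851 such windows, whose median GC was 52.4%. The cyclic AMP response element TGACGTCA, in 1.55% of windows, was in none of the 13 member windows, and the E-box CACGTG, in 6.02% of windows, was in 1, before a Dlgap1 start. Dlgap3, with the most GC-rich transcripts, thus has a GC-poor window upstream of this start. These are matches of letters only.

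The comparison of post- with pre-extinction libraries asks how the scaffold genes differed with the stage. It shares libraries with the ABX comparisons. In ABX libraries 7 of 10 members had higher values after extinction and 3 of 10 lower values, against 49% of genes with lower values. These differences had a median log2 fold change of 0.22 against 0.01 over all genes, from -0.15 in Dlg2 to 0.39 in Dlgap3. With the GC trend removed the median was 0.0026 and the members ran from -0.16 to 0.15, and without pre-extinction ABX replicate 1 the uncorrected median was 0.12. Shank1 averaged 410.1 ± 85.5 CPM (SD, n = 4) in post-extinction and 329.6 ± 60.2 CPM (SD, n = 4) in pre-extinction ABX libraries (log2 fold change 0.32, edgeR adjusted p = 0.35). edgeR called 0 of 10, with 0.0951% of genes called, as did DESeq2 (1.93% of genes) and voom (2.77% of genes). An unadjusted p under 0.05 was found in 0 of 10 members, against 8.97% of genes lower and 7.67% higher. The groups overlapped for all 10 members, while 2.78% of genes were lower and 2.69% higher without overlap.

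In non-ABX libraries 6 of 10 members had higher values after extinction and 4 of 10 lower values, against 50.9% of genes with lower values. These differences had a median log2 fold change of 0.12 against 0.00 over all genes, from -0.14 in Dlg2 to 0.19 in Dlgap3. Dlg4 averaged 915 ± 84.4 CPM (SD, n = 4) in post-extinction and 821 ± 169 CPM (SD, n = 3) in pre-extinction non-ABX libraries (log2 fold change 0.16, edgeR adjusted p = 0.90). edgeR called 0 of 10 members and 0% of genes, and DESeq2 called 0 of 10 and 0.125% of genes. An unadjusted p under 0.05 was found in 0 of 10 members, against 3.43% of genes lower and 1.51% higher, and the groups overlapped for all 10, while 3.57% of genes were lower and 2.33% higher without overlap. By contrast voom with sample quality weights called 6 of 10, Shank1, Shank3, Dlgap3, Dlgap4 and Dlg4 higher and Dlg2 lower after extinction, with 19% of genes called. Single pre-extinction libraries moved this median in both directions. Without pre-extinction non-ABX replicate 3 it was 0.33, and edgeR called 0 of 10, with 0.00589% of genes called. Without pre-extinction non-ABX replicate 4 it was -0.0053, with Shank3 at -0.0046 and Dlgap3 at -0.0083. With the GC trend removed it was 0.01.

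The interaction, the ABX difference after extinction minus that before, was not called for any member by edgeR, with 0% of genes called, nor by DESeq2 (0 of 10, 0.0238% of genes) or voom (0 of 10, 0% of genes). At an unadjusted p under 0.05 it was 0 of 10, against 0.767% of genes lower and 1.29% higher. Its values ran from -0.01 to 0.19 with a median of 0.08, against 0.01 over all genes. The 95% intervals were wide, -0.41 to 0.71 for Shank1 and -0.63 to 1.02 for Dlgap3, and the sign changed under at least 1 other setting for each of the 10 members. The interaction median was -0.09 without pre-extinction non-ABX replicate 3 and 0.18 without pre-extinction ABX replicate 4. It was -0.01 with the GC trend removed and -0.19 without the 2 libraries of most extreme GC slope.

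Of 37 other postsynaptic genes, covering adaptors that bind the members, other scaffolds, signalling enzymes, and receptors and adhesion proteins, 25 had a negative ABX difference averaged over the stages (67.6%, against 47.5% of all genes tested), with a median log2 fold change of -0.10. edgeR called 1 lower and 0 higher (2.7%, against 0.624% of all genes in either direction). At an unadjusted p under 0.05, 14 were lower (37.8%, against 17.8% of all genes) and 1 was higher (2.7%, against 12.8%). The called gene was Tanc1, an adaptor that binds PSD-95 and Shank proteins. It averaged 22.3 ± 1.57 CPM with ABX (SD, n = 4) and 26.5 ± 1.47 CPM without (SD, n = 3) before extinction, and 24.5 ± 1.44 CPM with ABX and 29.8 ± 1.58 CPM without after it (SD, n = 4 each). Averaged over both stages, ABX over non-ABX came to -0.27 on the log2 scale (SE 0.05, edgeR adjusted p = 0.037).

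The other genes taken by smallest p did not pass. Among adaptors Baiap2, which encodes IRSp53, a partner of Shank and PSD-95, had -0.38 (edgeR adjusted p = 0.078). Among other scaffolds the guanylate kinase genes Mpp3 and Mpp2 had -0.29 and -0.23 (edgeR adjusted p = 0.055 and 0.086). Of the signalling enzymes 7 of 8 had negative values, with a median of -0.24. Iqsec1, an exchange factor for Arf6, had -0.30 (edgeR adjusted p = 0.061). Grin1, the obligatory NMDA receptor subunit, had -0.38, and Nlgn3, a neuroligin that binds PSD-95, had -0.26 (edgeR adjusted p = 0.070 and 0.073). With the GC trend removed, 3 of the 37 were called lower and 1 higher, 10.8% of them in either direction against 3.99% of all genes.

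Markers of cell types differed with ABX in both directions. The 7 cortical excitatory markers summed to 1620 to 2124 CPM in pre-extinction ABX libraries and 1961 to 2447 CPM in pre-extinction non-ABX libraries, and to 1966 to 2160 CPM with ABX and 2179 to 2369 CPM without after extinction, where the groups did not overlap. Slc17a7 alone gave 1177 to 1809 CPM of these sums, and after extinction the median log2 fold change of the 7 markers was -0.02. In that comparison edgeR called 0 of 7, against 0.0178% of all genes. At an unadjusted p under 0.05, 0 of 7 were lower, against 6.83% of all genes. Averaged over the stages 6 of these 7 markers were negative, against 47.5% of all genes, and edgeR called 0, against 0.624%. At an unadjusted p under 0.05, 3 were lower, against 17.8% of all genes. The 7 endothelial markers summed to 159 to 217 CPM with ABX and 234 to 266 CPM without before extinction. After it they summed to 164 to 216 CPM with ABX and 223 to 242 CPM without. In the average edgeR called 3 of 7 endothelial markers lower, against 0.624% of all genes in either direction. Astrocyte markers went the other way after extinction, where the 6 summed to 5118 to 5485 CPM with ABX and 4829 to 5038 CPM without, with no overlap. Before extinction they summed to 5112 to 7179 CPM with ABX and 4854 to 5597 CPM without, the highest sum being that of pre-extinction ABX replicate 1, the lowest library for 6 members. Slc1a2 alone gave 3698 to 5788 CPM of the astrocyte sums. In the average 4 of 6 astrocyte markers were positive and 2 negative, against 47.5% of all genes negative. edgeR called 0 of them, against 0.624% of all genes. At an unadjusted p under 0.05, 2 were higher, against 12.8% of all genes, and 1 was lower, against 17.8%. Interneuron, oligodendrocyte and microglial marker sums overlapped between ABX and non-ABX libraries at both stages. Striatal markers summed to 161 to 198 CPM over all libraries and blood markers to at most 10.7 CPM, in post-extinction ABX replicate 1. Of the lists used, only the blood list had markers at 0 in a library, Hba-a1 being at 0 in all. The part of these cell types in the members' differences was not tested.

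By likeness of pattern, taken as the root mean square difference of centred log2 CPM over the 15 libraries among 13885 candidate genes, some of the nearest genes were as follows. Shank1 lay nearest to Nrxn2 (0.06) and Obsl1 (0.06), Shank2 to Cacna1g (0.06), and Shank3 to Fcho1 and Asb6 (0.06 each). Dlgap3 lay nearest to Zfpm1 (0.04) and Zfp628 (0.07), Dlgap4 to Rnf44 and Grin1 (0.04 each), and Dlgap2 to Gabbr2 and Cacna1b (0.05 each). Dlgap1 lay nearest to Rprd2 and Smad4 (0.04 each), Dlg2 to Map3k7 (0.03) and Nvl (0.04), Dlg3 to Cul4a and Rab7 (0.03 each), and Dlg4 to Gfra4 and Sez6l2 (0.04 each). Among the members themselves Dlgap1 and Dlg3 were closest (0.06), followed by Shank1 and Shank3 (0.08), and Dlgap3 and Dlg2 were farthest apart (0.66). These distances also reflect how much a gene varies at all. Some neighbours were near their member in GC content, such as Nrxn2 (62.3%) to Shank1 (63.7%) and Map3k7 (44.5%) to Dlg2 (44.3%). Others were not, such as Gfra4 (69.2%) to Dlg4 (56.1%) and Rprd2 (44.5%) to Dlgap1 (54.4%). What the neighbours share with the members was not tested.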

How the data were processed

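RNA of dissected mouse mPFC was sequenced in 15 libraries made with a low-input kit that does not keep strand. The authors deposited a table of raw counts per Entrez gene identifier. The submitters' processing notes name STAR 2.3.0, CASAVA 1.8.2 and build mm10. For the counting program and annotation no name was given in the sources used here. Depth was 44254906 to 57929503 counts per library.

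The members, the other gene lists and the tests were chosen with earlier results of these data known, and the 10 members are named in all comparisons. Of the 37 other postsynaptic genes, those named are the 2 of smallest unadjusted p in each of 4 groups for the ABX difference averaged over the stages, and 1 gene that this rule takes is not reported here. Counts were fitted in R 4.3.3 with edgeR 4.0.16: filterByExpr (minimum count 10, minimum total 15) kept 16816 genes, TMM factors were 0.969 to 1.03, and 1 quasi-likelihood fit of all 15 libraries held the 4 group means. Tests were two-sided with Benjamini-Hochberg adjustment over all genes. Standard errors were taken from the F statistic and the log2 fold change. Alternatives were DESeq2 1.42.0 (the share called is of genes with an adjusted p), voom with quality weights in limma 3.58.1, RLE scaling, other filters, the replicate number as a block, the compared groups alone, and each library left out.

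The GC correction fits a spline of 5 degrees of freedom per library on the median GC content of each gene's GENCODE M21 transcripts, known for 91.2% of the genes tested, and uses it as an offset. This median replaced the longest transcript, which gave Dlg4 an atypical value, before any model was fitted. Transcript lengths for CPM per kb are medians over the same transcripts. The scripts were tested on simulated counts, and all columns of the table were used.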

Additional observations from a re-analysis of the deposited data

How the results depend on the processing

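In the averaged ABX difference the count of calls depended on the setting: 0 members were called by edgeR (0.624% of genes), and 7 of 24 other settings called members. Signs in that comparison held for 235 of 240 values of single members. In the interaction 56 of 240 values of single members changed sign, and 0 members called in all 24 settings. RLE scaling and a minimum mean of 1 CPM changed no sign and no call. The replicate numbers were not taken to pair libraries, since the sample titles state no pairing. Same-numbered libraries correlated between -0.75 and 0.60 in their deviations from group means. These values cannot decide pairing, because libraries also differed in the GC trend over all genes. Values that reversed or moved follow, as log2 differences, and their causes were not tested. With DESeq2, in the averaged ABX difference 7 members were called (12.9% of genes). With voom, in the pre-extinction ABX difference the median was -0.24 and Dlgap1 was 0.017. 6 members were called (19% of genes), Dlgap1 was 0.0060, Dlgap2 was 0.11 and Dlg3 was 0.0012 in non-ABX post against pre. Shank3 was -0.035, Dlgap2 was -0.053, Dlgap3 was -0.083, Dlgap4 was -0.072, Dlg2 was 0.041, Dlg3 was -0.015 and Dlg4 was -0.027 in the interaction. 4 members were called (5.36% of genes) in the averaged ABX difference. With no filter, in the interaction Dlg3 was -0.0015. With the replicate number as a block, in the averaged ABX difference 5 members were called (3.96% of genes). With the GC trend removed, in the pre-extinction ABX difference the median was -0.16, Dlgap1 was 0.11 and Dlg2 was -0.017. Dlgap1 was 0.045 in the post-extinction ABX difference. The median was 0.0026, Shank3 was -0.0082 and Dlgap2 was -0.14 in ABX post against pre. Shank1 was -0.0082, Shank3 was -0.017, Dlgap2 was -0.044, Dlgap4 was -0.0028, Dlg2 was 0.034, Dlg3 was -0.012 and Dlg4 was -0.018 in the interaction. 5 members were called (3.99% of genes), the median was -0.16, Dlgap1 was 0.077 and Dlg2 was -5.2e-05 in the averaged ABX difference. With the replicate block and the GC trend removed together, in the pre-extinction ABX difference the median was -0.16, Dlgap1 was 0.11 and Dlg2 was -0.025. 2 members were called (3.39% of genes) and Dlgap1 was 0.045 in the post-extinction ABX difference. The median was 0.0015, Shank3 was -0.0097 and Dlgap2 was -0.15 in ABX post against pre. Shank3 was -0.016, Dlgap2 was -0.024, Dlg2 was 0.042 and Dlg4 was -0.011 in the interaction. 6 members were called (11.4% of genes), the median was -0.17, Dlgap1 was 0.077 and Dlg2 was -0.0043 in the averaged ABX difference. Without the 2 libraries of most extreme GC slope, a setting added after seeing the data, in the pre-extinction ABX difference the median was -0.12, Dlgap1 was 0.020, Dlg2 was -0.014 and Dlg3 was 0.0019. The median was 0.33, Dlgap2 was 0.097 and Dlg3 was 0.0077 in non-ABX post against pre. Dlgap2 was -0.046 in ABX post against pre. The median was -0.19, Shank1 was -0.25, Shank2 was -0.17, Shank3 was -0.29, Dlgap2 was -0.14, Dlgap3 was -0.47, Dlgap4 was -0.26, Dlg2 was 0.11, Dlg3 was -0.033 and Dlg4 was -0.22 in the interaction. With each library left out in turn, values that reversed or moved had these ranges. The pre-extinction ABX difference gave -0.028 to 0.0050 for Dlgap1 and -0.52 to -0.23 for the median. The post-extinction ABX difference gave -0.056 to 0.019 for Dlgap1 and -0.048 to 0.0064 for Dlg3. Non-ABX post against pre gave -0.0053 to 0.33 for the median, -0.067 to 0.092 for Dlgap2, -0.027 to 0.0075 for Dlg3, -0.0046 to 0.46 for Shank3 and -0.0083 to 0.68 for Dlgap3. ABX post against pre gave -0.057 to 0.13 for Dlgap2 and -0.029 to 0.025 for Dlg3. The interaction gave -0.062 to 0.15 for Dlgap2, -0.12 to 0.22 for Dlgap4, -0.060 to 0.068 for Dlg2, -0.023 to 0.036 for Dlg3, -0.12 to 0.15 for Dlg4, -0.042 to 0.033 for Dlgap1, -0.13 to 0.30 for Shank1, -0.038 to 0.26 for Shank2, -0.19 to 0.28 for Shank3 and -0.29 to 0.41 for Dlgap3. The averaged ABX difference gave 0 to 7 members called, with 0.0236% to 18.2% of genes called, and -0.034 to 0.0030 for Dlgap1. Each member had at least 3426 counts in every library.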
